A study of Homo sapiens with 9 samples.

Results

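The genes of 9 blood group antigens and of the proteins that carry or accompany them were followed in K562 cells: RHAG, RHD and RHCE of the Rh complex, the glycophorin genes GYPB, GYPE and GYPC, KEL and its partner XK, and ERMAP. They are 9 of the 62700 genes in Gencode v44, and were taken by name, with earlier results of these data known. A TIF-Seq2 read pair was counted for a gene when its 5′ and its 3′ end both lay on the gene's strand within 1 kb of the annotated gene body. Of 22384 genes with at least 1 read pair, all 9 had read pairs in every library and all 9 had enough to be tested.

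K562 is an established human leukaemia cell line that carries the BCR-ABL1 fusion and can be driven towards the erythroid lineage, and imatinib is an inhibitor of the ABL kinase. Cells were grown for 24 h with 1 μM imatinib or with the solvent DMSO, and 2 TIF-Seq2 libraries of each were used. In TIF-Seq2, RNA with a cap and a poly(A) tail is copied in full and the copy is closed into a circle, and each read pair across the closure marks where an RNA molecule began and where it ended. The study's methods call the 2 replicates of a treatment biological, and p-values measure the spread between these libraries.

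Blood group antigens sit on membrane proteins of the red cell. The RhD and RhCE proteins carry the D and the C, c, E and e antigens and reach the surface together with the Rh-associated glycoprotein, RHAG. Glycophorins are heavily sialylated proteins, the Kell protein is an endopeptidase bound to XK by a disulfide bond, and ERMAP carries the Scianna antigens. RHD and RHCE arose by duplication, and GYPB and GYPE are duplicated copies as well, so a read from one copy can match another.

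The stretch before the main start of a gene, meaning the most used position of its start cluster with the most read pairs, is shown first because the same motif recurs there. In the 100 nt before the main start, 8 of the 9 genes held a GATA-type hexamer (AGATAA or TGATAA or AGATAG or TGATAG, on either strand, with overlapping matches counted), the kind of site that erythroid GATA factors recognize. Of 35116 RefSeq promoters, read over the same 100 nt before the annotated start, 8.77% held it. The 30 nt around the first match in each gene, from hg38 and on the gene's strand, have the hexamer in capitals.
RHAG, chr6:49636853-49636882, minus strand: agtcctttgttcTTATCAacatctcacagc
RHD, chr1:25272431-25272460, plus strand: tgAGATAAggcctttggcgggtgtctcccc
RHCE, chr1:25420884-25420913, minus strand: ccttgcagcctgAGATAAggcctttggcgg
GYPB, chr4:144019405-144019434, minus strand: tgcctcccctgcCTATCAgctgatgatggc
GYPE, chr4:143905625-143905654, minus strand: tgcctcccctgcCTATCAgctgatgatggc
GYPC, chr2:126656082-126656111, plus strand: aatgaagtctgcCTATCTccgggccagagc
KEL, chr7:142962408-142962437, minus strand: cctgagaagctgAGATAAagggggaggaga
ERMAP, chr1:42825481-42825510, plus strand: ctgttcttTTATCAggggcatacagacagg

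The matches of RHD and RHCE are the same duplicated element, and so are those of GYPB and GYPE, so the 8 genes are not 8 separate cases. XK held no such hexamer in its window. In RHAG and GYPC the first match lay inside the main start cluster, and in RHD and RHCE inside another start cluster of the gene. Part of the read pairs of these genes thus began before the match. Several of the windows also overlap annotated exons. The RefSeq windows end at annotated starts rather than at the most used position, so the 2 kinds of window are not fully alike. CACCC, searched on both strands, was in 6 of the 9 windows against 28.9% of the RefSeq windows, and TATAAA, searched on the gene's strand, was in 0 of 9 against 3.51%. A match is a description of letters, and no binding was measured.

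The libraries held 3695520 and 5135829 read pairs for DMSO replicates 1 and 2, and 4263670 and 2263121 for imatinib replicates 1 and 2. The 9 genes together took 0.0635% and 0.0659% of the DMSO libraries and 0.221% and 0.163% of the imatinib libraries, 18821 read pairs in all. Their 3′ ends carried a share with 7 or more A among the next 10 genomic bases, where oligo(dT) can prime inside an RNA. Over whole libraries this share was 8.14% and 8.27% in DMSO and 9.80% and 7.82% in imatinib, and in 6 of the 9 genes it was highest in imatinib replicate 1. Of 8 markers of K562 all had read pairs and 7 were tested. The fetal and embryonic globin genes HBG1, HBG2, HBE1 and HBZ rose, by log2 fold changes of 1.27 to 2.33, while GATA1, TAL1 and TFRC did not pass the threshold (edgeR adjusted p = 0.884, 0.101 and 0.0615). Of 9 markers of other blood cells, CD3E, MS4A1 and GP1BA had no read pair in any library, and the sum over the list was 681 and 1091 pairs in DMSO and 242 and 284 in imatinib. Of the 3 that were tested, 1 was called lower, the T cell receptor subunit CD3D, with 257 and 304 read pairs in DMSO and 23 and 8 in imatinib (log2 fold change -3.88, edgeR adjusted p = 0.00123), and the part of these markers in the results was not tested. Fewer cells making an RNA and less RNA per cell cannot be told apart in these bulk libraries.

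All 9 genes were called higher after imatinib, at an adjusted p under 0.05 in edgeR's quasi-likelihood test over 12135 genes, and none was called lower. Over all genes tested, 8.69% were called higher and 6.15% lower. Since the 9 genes were chosen with earlier results of these data known, this contrast is a description. The median log2 fold change was 2.93 over the 9 genes and 0.03 over all genes. Both imatinib libraries lay above both DMSO libraries in each of the 9 genes, as they did in 31.0% of all genes tested. With a log2 fold change beyond 1.5 asked as well, 7 of the 9 were called and GYPC and RHAG were not, while 6.46% of all genes passed that rule in the higher direction.

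**Figure D1:**
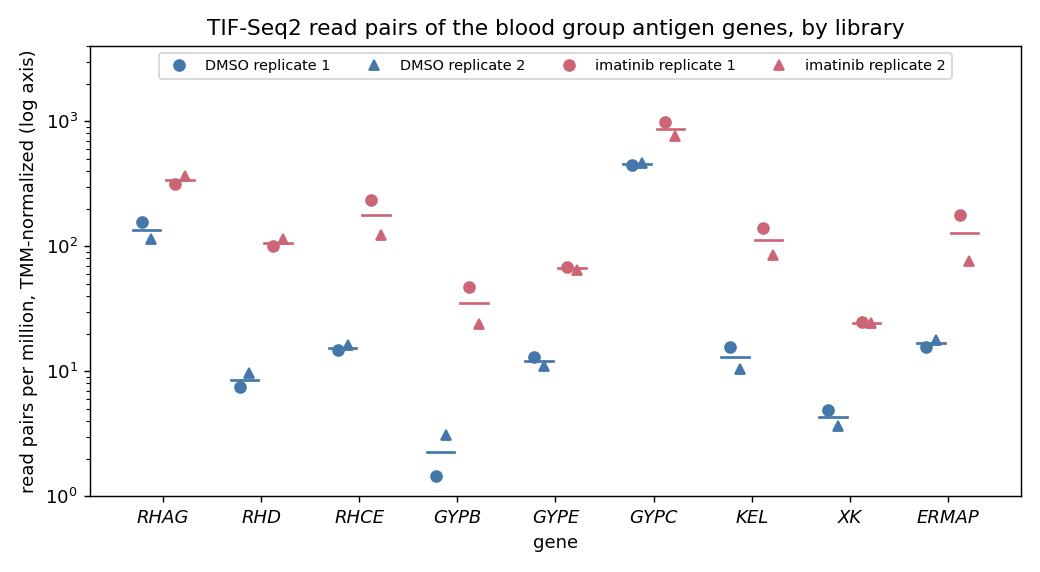
Level of each gene in the 4 libraries in CPM (read pairs scaled to the depth of the library), TMM-normalized and on a log axis; blue is DMSO, red is imatinib, circles are replicate 1, triangles replicate 2, and lines the means of 2 libraries. In all 9 genes both red points lie above both blue points, by the least in GYPC, where the means are 458 and 870.

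**Figure D2:**
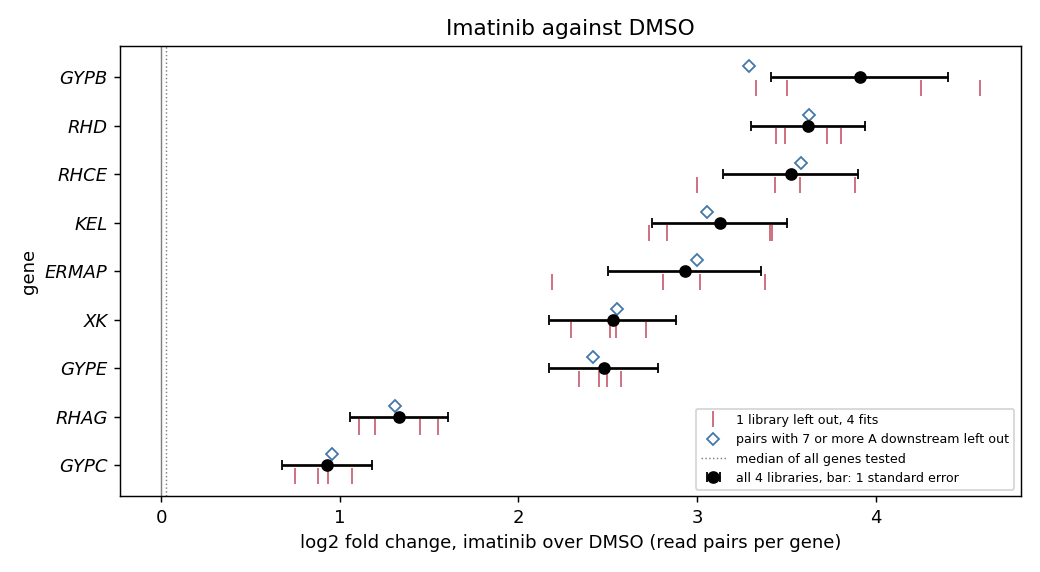
Log2 fold change of each gene, imatinib over DMSO, with 1 standard error over the 4 libraries (black), after leaving out each library in turn (red ticks) and after leaving out read pairs with 7 or more A downstream (blue diamonds). Every value lies above 0, from 0.75 for GYPC without imatinib replicate 1 to 4.58 for GYPB without DMSO replicate 2.

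RHAG (ENSG00000112077.18, chr6:49605175-49636839, minus strand) encodes the glycoprotein that the Rh proteins need at the membrane, and belongs to the family of ammonium transporters. It had 538 and 590 read pairs in the DMSO libraries and 1418 and 815 in the imatinib libraries. After TMM normalization these are 134 ± 29.7 CPM in DMSO and 338 ± 34.4 in imatinib (mean ± SD over 2 libraries each), a log2 fold change of 1.33 (SE 0.27, edgeR adjusted p = 0.0147). The call rested on DMSO replicate 2, since without that library the log2 fold change was 1.11 and the edgeR adjusted p 0.184.

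Starts and poly(A) sites of RHAG matched the annotation. The main start, chr6:49636839, is the annotated one, and its cluster held 87.4% of the gene's read pairs (95% Wilson interval 86.2 to 88.4, counting error only). The main poly(A) site, chr6:49605179, held 87.7% and lay 4 nt before the annotated end. A second site in an intron, chr6:49611755, was followed by 10 A in 10 bases and had no AATAAA or ATTAAA in the 50 nt before it. It took 7 and 20 read pairs in DMSO and 134 and 17 in imatinib, so it was prominent in imatinib replicate 1 alone. Leaving out all A-rich pairs gave a log2 fold change of 1.31.

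RHD (ENSG00000187010.21, chr1:25272393-25330445, plus strand), the gene of the D antigen, had 26 and 50 read pairs in DMSO and 450 and 256 in imatinib. Normalized levels were 8.56 ± 1.49 and 107 ± 10.1 CPM (mean ± SD over 2 libraries each). RHD rose by a log2 fold change of 3.62 (SE 0.32, edgeR adjusted p = 0.000946), a 12.3-fold difference beyond the spread between replicates. Without any single library it stayed between 3.44 and 3.81.

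RHCE (ENSG00000188672.19, chr1:25362249-25430192, minus strand), the gene of the C, c, E and e antigens, had 51 and 84 read pairs in DMSO and 1053 and 276 in imatinib. In CPM RHCE went from 15.4 ± 1.01 to 178 ± 77.9 (SD, 2 libraries each), with imatinib replicate 1 the highest. This is a log2 fold change of 3.52 (SE 0.38, edgeR adjusted p = 0.00183).

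Starts of both Rh genes were spread over many positions, 144 in RHD and 242 in RHCE. The main start cluster of RHD, around chr1:25272531, held 78.3% of its read pairs, and a cluster at chr1:25272399 held 12.4%. In RHCE the cluster around chr1:25420825 held 69.2%. A start at chr1:25430196, 9371 nt upstream and within 4 nt of the annotated start of another RHCE transcript, held 11.8%. That start had 5 and 10 read pairs in DMSO and 136 and 22 in imatinib. Its share was 9.80% and 11.9% in DMSO and 12.9% and 7.97% in imatinib, so the groups overlapped. A cluster of RHCE at chr1:25420935 held 9.08% and covers bases that match the RHD cluster at chr1:25272399. In part of these clusters 20 nt separate the genes, as at chr1:25272413 with 7 read pairs and its matching base chr1:25420921 with 3.

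The listed read pairs of the 2 genes began mostly at matching bases, but at most of the leading bases the 5′ read cannot separate the genes. The likeness below is therefore one of listed read pairs, and does not show that both genes use these starts. Over 98 positions where either gene had a start near its first exon, the base in the 2 genes was the same at 100%, and the numbers of read pairs had Pearson's r = 0.958 and Spearman's rho = 0.629, a description over positions of the same libraries. Among the 5 most used positions of each gene, 4 were shared. RHD had 111 read pairs at chr1:25272531 and RHCE 138 at the matching base, chr1:25420803. RHD had 91 at chr1:25272509 and RHCE 155 at chr1:25420825, so the order of the leading pair differed. The first 30 nt from these starts are identical between the genes and are shown because a short 5′ read cannot separate them.
RHD, chr1:25272531-25272560, plus strand: acagagacggacacaggatgagctctaagt
RHCE, chr1:25420774-25420803, minus strand: acagagacggacacaggatgagctctaagt

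The 5′ read was at most 68 nt long after removal of the molecular identifier. From the main start of RHD, 65 nt were needed to differ from RHCE, and from that of RHCE 68 nt did not suffice. In the 261 nt around the main start, 488 read pairs of RHD began where 68 nt did not separate it from RHCE and 205 began where they did. For RHCE the numbers were 876 and 269. The authors kept uniquely mapped pairs, and how a pair was treated when only 1 of its ends was unique is not given in the sources used here. The genes lie in opposite orientation, and their 3′ ends differ: over the 50 nt before the main poly(A) sites, the closest stretch of the other gene had 21 mismatches for RHD and 23 for RHCE.

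The poly(A) sites of the Rh genes are shown with the last AATAAA, or where there is none the last ATTAAA, in capitals, as in the later genes. A further copy farther from the site, as in RHCE site 1, GYPB site 1 and GYPE site 2, is left in small letters. Which copy acts was not tested. Each line is the 30 nt that end at the site.
RHD site 1, chr1:25329125-25329154, plus strand: atacaacAATAAAatacagccatgtaccac
RHD site 2, chr1:25330410-25330439, plus strand: tacttgaaaAATAAAaatgaacaagctaac
RHCE site 1, chr1:25362368-25362397, minus strand: gacagatttgatattaaaaaATTAAAgact
RHCE site 2, chr1:25362309-25362338, minus strand: agtttaaAATAAAtgtttagtttcattagg

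RHD ended at site 1 in 70.2% of its read pairs and at site 2, 1285 nt farther, in 18.7%. In the 4 libraries site 1 took 61.5% and 80.0% in DMSO and 68.2% and 72.7% in imatinib, so the groups overlapped. The 76 nt that a 3′ read can cover at site 1 have a second exact copy on chromosome 1, at chr1:25258992, upstream of the gene. RHCE ended at site 1 in 51.1% and at site 2, 59 nt farther, in 36.8%. Site 2 took 15.7% and 36.9% in DMSO and 43.8% and 14.1% in imatinib. It was high in DMSO replicate 2 and imatinib replicate 1 and low in the other libraries, so its share did not follow the treatment. A further 65 read pairs began in RHCE and ended around chr1:25361059, 1190 bp past the annotated end and outside the 1 kb limit, 0 and 2 in DMSO and 52 and 11 in imatinib.

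At the level of single isoforms, a TIF is a combination of a start cluster and a poly(A) cluster with at least 4 read pairs. Of 65 TIFs of the 9 genes, 27 had enough read pairs to be tested among 15477 TIFs, and 21 were called higher and 0 lower, where 6.60% of all TIFs were called higher and 4.96% lower. With a log2 fold change beyond 1.5 asked as well, 18 of the 27 passed, against 5.85% of all TIFs. Both imatinib libraries lay above both DMSO libraries in all 27, against 28.4% of all TIFs. The filter for testing asks for a minimum level in as many libraries as a treatment has. Many of the 27 reached it through the imatinib libraries alone, such as ERMAP chr1:42825654 to chr1:42844991 with 0 and 0 read pairs in DMSO. For those TIFs the filter favoured the higher direction, so these counts are no separate support for the rise of the genes. All 5 TIFs of RHD and all 4 of RHCE were called. The largest of RHD, chr1:25272531 to chr1:25329154, had 3 and 7 read pairs in DMSO and 60 and 34 in imatinib (log2 fold change 3.74, SE 0.51, edgeR adjusted p = 0.00355). The next TIFs of RHD that were called, from chr1:25272481 and chr1:25272509 to the same site, had log2 fold changes of 3.79 and 4.23.

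The largest TIF of RHCE, chr1:25420853 to chr1:25362368, had 11 and 6 read pairs in DMSO and 115 and 64 in imatinib (log2 fold change 3.86, SE 0.51, edgeR adjusted p = 0.00340). From the same start to site 2 the numbers were 3 and 12 in DMSO and 108 and 11 in imatinib. Its log2 fold change was 3.33 (edgeR adjusted p = 0.0261), and without imatinib replicate 1 it fell to 1.63 with an edgeR adjusted p of 0.201. The TIF from chr1:25420825 to site 1 had a log2 fold change of 3.78. For RHAG, 4 of 5 TIFs were called. The largest, chr6:49636871 to chr6:49605179, had 117 and 142 read pairs in DMSO and 332 and 229 in imatinib (log2 fold change 1.67, edgeR adjusted p = 0.0108). It was not called without DMSO replicate 2 (edgeR adjusted p = 0.0950). The TIFs from chr6:49636839 and chr6:49636821 to that site had log2 fold changes of 1.48 and 1.51, and neither was called without DMSO replicate 1 (edgeR adjusted p = 0.0804 and 0.0983) or without DMSO replicate 2 (edgeR adjusted p = 0.275 and 0.265).

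**Figure D3:**
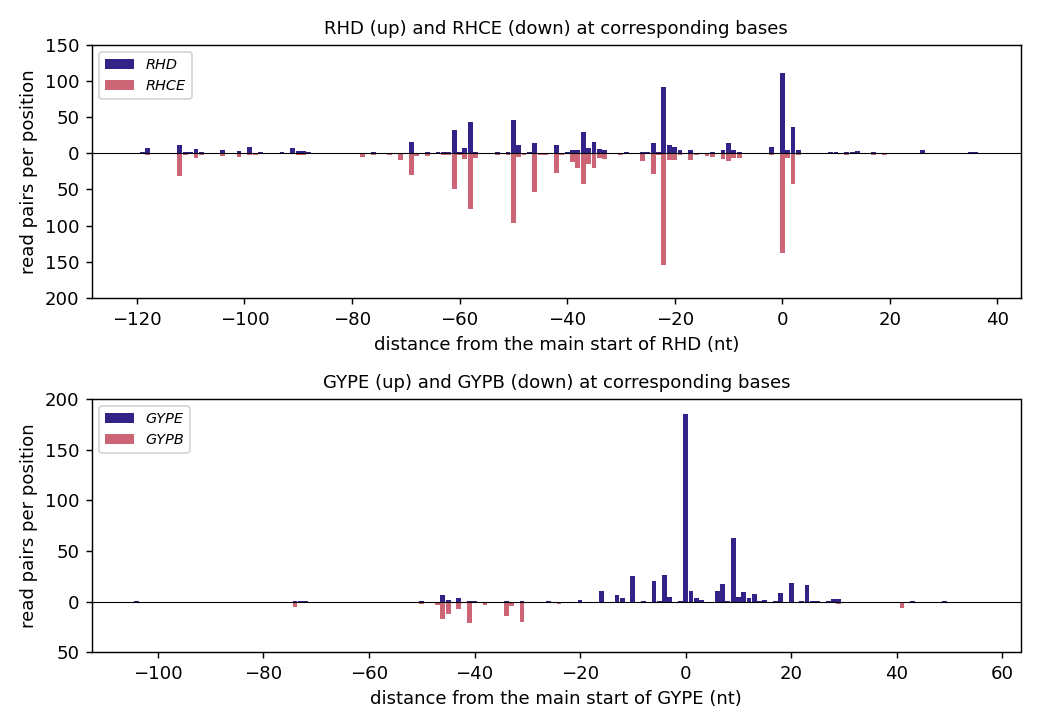
Read pairs per start position, summed over the 4 libraries, at corresponding bases of 2 pairs of duplicated genes; the axis gives the distance in nt from the main start of RHD (top) and of GYPE (bottom). The listed read pairs of RHD and RHCE peak at the same bases, with 4 of the 5 most used positions shared. At most of these shared positions the first 68 nt do not separate the genes, so the upper panel does not show shared use of starts. GYPB has 0 read pairs at the 5 most used bases of GYPE, where its first 68 nt are not unique in the genome, so the lower panel does not compare their use of starts.

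GYPB (ENSG00000250361.10, chr4:143996104-144019380, minus strand) encodes glycophorin B, which carries the S and s antigens. It was the gene with the fewest read pairs in DMSO, 5 and 16, and had 212 and 54 in imatinib. The normalized level was 2.26 ± 1.15 CPM in DMSO and 35.4 ± 16.2 in imatinib (SD, 2 libraries each). The gene reached the filter for testing only with the imatinib libraries, so the filter favoured the higher direction. GYPB rose by a log2 fold change of 3.91 (SE 0.50, edgeR adjusted p = 0.00313). It was 4.58 without DMSO replicate 2 and 3.33 without imatinib replicate 1. Without the A-rich pairs it was 3.29 (edgeR adjusted p = 0.00291).

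The A-rich share of GYPB moved with the libraries, at 0% and 6.25% in DMSO and 48.6% and 20.4% in imatinib. Most of it came from a site in an intron, chr4:144016423, with 0 and 1 read pairs in DMSO and 100 and 4 in imatinib. The 30 nt before it and those before the main site, which holds 58.9% of the read pairs, show the difference in the poly(A) signal. By library the main site held 100% and 81.3% in DMSO and 49.1% and 87.0% in imatinib, and without imatinib replicate 1 its pooled share was 86.7%.
GYPB site 1, chr4:143996112-143996141, minus strand: ctacttctaaataaaAATAAAacaaaatac
GYPB site 2, chr4:144016423-144016452, minus strand: agaagcagagagggagaggaaggaagaaag
The site in the intron was followed by 7 A in 10 bases. The 76 nt that a 3′ read can cover there are not unique in the genome, so it cannot be assigned to GYPB by the 3′ read alone.

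GYPE (ENSG00000197465.14, chr4:143870864-143905563, minus strand), a member of the glycophorin family known mainly from its RNA, had 45 and 57 read pairs in DMSO and 310 and 145 in imatinib. In CPM it rose from 12.0 ± 1.44 to 66.5 ± 2.90 (SD, 2 libraries each), the imatinib libraries being close to each other. Its log2 fold change was 2.48 (SE 0.30, edgeR adjusted p = 0.00268), and between 2.34 and 2.57 without any single library.

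GYPE had a single start cluster of note, around chr4:143905559, with 88.3% of its read pairs, but many ends. Its main poly(A) site held 41.8%, the site in an intron at chr4:143875316 held 15.8% and that at chr4:143879370 held 7.36%. The second site is the counterpart of the main site of GYPB: the 30 nt that end at the main site of GYPB occur without a mismatch in GYPE at chr4:143875321-143875350.
GYPE site 1, chr4:143870867-143870896, minus strand: gatcAATAAAacctctttcctttataaatt
GYPE site 2, chr4:143875316-143875345, minus strand: tctaaataaaAATAAAacaaaatacaaatt
Site 2 took 15.6% and 15.8% of the read pairs in DMSO and 15.5% and 16.6% in imatinib, nearly the same share in every library.

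Beyond the 1 kb limit, 175 read pairs began in GYPE and ended elsewhere on the same strand, 21 and 7 in DMSO and 112 and 35 in imatinib. Of these, 86 ended around chr4:143840589, 30.3 kb past the annotated end, where Gencode has no gene on that strand and an ATTAAA lies in the 50 nt before the site. They numbered 15 and 4 in DMSO and 47 and 20 in imatinib, and 43 of them began at the main start of GYPE. Another 36 ended around chr4:143832839, 38.0 kb past the end. These read pairs are not part of the counts of GYPE above.

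Use of starts could not be compared between GYPE and GYPB. GYPE had 319 read pairs at its 5 most used positions and GYPB 0 at the matching bases, but at those bases of GYPB the first 68 nt are not unique in the genome. Of the read pairs of GYPB in the 261 nt around its main start, 121 began where 68 nt set it apart from its duplicated copies and 10 where they did not, and for GYPE the numbers were 496 and 2. Among the listed read pairs, the main start of GYPB lay 41 nt upstream of the base that matches the main start of GYPE. The 30 nt from the main start of GYPB and the closest stretch of GYPE are shown because they differ at a single base.
GYPB, chr4:144019351-144019380, minus strand: aacagctagTaggctaaggccagacactga
GYPE, chr4:143905571-143905600, minus strand: aacagctagCaggctaaggccagacactga
Capitals mark the base that differs. Both genes lie on the minus strand, GYPB upstream of GYPE. How many RNA molecules of GYPB were set aside as not uniquely mapped was not tested, so its level is the level of the read pairs that could be listed.

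GYPC (ENSG00000136732.16, chr2:126656133-126696667, plus strand), the gene of glycophorins C and D, which carry the Gerbich antigens and bind protein 4.1, is no relative of the other glycophorins in sequence. It had the most read pairs of the 9 genes, 1558 and 2420 in DMSO and 4418 and 1716 in imatinib. Its level was 458 ± 10.8 CPM in DMSO and 870 ± 152 in imatinib (SD, 2 libraries each). The log2 fold change, 0.93 (SE 0.25, edgeR adjusted p = 0.0400), was the smallest of the 9 and close to the limit of the call. Without DMSO replicate 1 it was 0.88 (edgeR adjusted p = 0.296) and without DMSO replicate 2 it was 0.94 (edgeR adjusted p = 0.282), so that the size held and the call did not.

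GYPC was also the most uniform. Its main start cluster, chr2:126656147, held 91.9% of the read pairs and its poly(A) site, chr2:126696666, 98.3%, with 98.7% and 98.5% in DMSO and 98.1% and 98.3% in imatinib. Both ends matched the annotation within 200 bp in 92.2% of the read pairs. The TIF that joins them had 1273 and 1985 read pairs in DMSO and 3505 and 1415 in imatinib (log2 fold change 1.07, SE 0.25, edgeR adjusted p = 0.0227). It was not called without DMSO replicate 1 (edgeR adjusted p = 0.177) or without DMSO replicate 2 (edgeR adjusted p = 0.103). The other 3 TIFs of GYPC that were tested did not pass the threshold.

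The single TIF of GYPB that was tested, chr4:144019370 to chr4:143996112, had 1 and 3 read pairs in DMSO and 14 and 10 in imatinib (log2 fold change 3.06, SE 0.69, edgeR adjusted p = 0.0210). That call was lost without DMSO replicate 1, DMSO replicate 2 or imatinib replicate 2 (edgeR adjusted p = 0.145, 0.104 and 0.0966). Both TIFs of GYPE were called. The larger, chr4:143905559 to chr4:143870867, had 14 and 12 read pairs in DMSO and 72 and 43 in imatinib (log2 fold change 2.64, SE 0.45, edgeR adjusted p = 0.00818), and was not called without DMSO replicate 2 (edgeR adjusted p = 0.0641). The TIF from that start to chr4:143875316 had a log2 fold change of 2.72 and was not called without DMSO replicate 1 (edgeR adjusted p = 0.0839) or DMSO replicate 2 (edgeR adjusted p = 0.0615).

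KEL (ENSG00000197993.9, chr7:142941114-142962363, minus strand) encodes the Kell endopeptidase. It had 54 read pairs in each DMSO library and 632 and 190 in imatinib. Levels were 13.0 ± 3.69 and 112 ± 39.1 CPM (SD, 2 libraries each). KEL rose by a log2 fold change of 3.13 (SE 0.38, edgeR adjusted p = 0.00237), and it lay between 2.73 and 3.42 without any single library.

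The main start cluster of KEL, chr7:142962359, held 70.3% of the read pairs, and its window before the start held a second GATA-type hexamer that begins 30 nt before it. The window of GYPE also held a second one, which begins 45 nt before its main start. In KEL and in GYPE the second match lay inside the main start cluster. The main poly(A) site, chr7:142941127, held 73.1%, with 68.5% and 44.4% in DMSO and 76.1% and 72.6% in imatinib. Sites 2 and 3 lay in introns, and site 2, chr7:142956451, was followed by 10 A in 10 bases.
KEL site 1, chr7:142941127-142941156, minus strand: tccaaaAATAAAagctggcacttggcttcc
KEL site 2, chr7:142956451-142956480, minus strand: caggcgaaggtgaaacatttgacataatag
Site 2 had 2 and 3 read pairs in DMSO and 78 and 8 in imatinib. The third site, chr7:142952230, had 4 A downstream and took 11.1% and 33.3% of the read pairs in DMSO and 3.80% and 9.47% in imatinib. Its shares were lower in both imatinib libraries than in both DMSO libraries, with 6 and 18 read pairs in DMSO and 24 and 18 in imatinib. The shares of site 1 were higher in both imatinib libraries than in both DMSO libraries. Neither difference was tested. The largest TIF of KEL, between its main ends, had 17 and 7 read pairs in DMSO and 161 and 57 in imatinib (log2 fold change 3.55, SE 0.57, edgeR adjusted p = 0.00677). The TIF from chr7:142962327 to the same site had 0 and 3 read pairs in DMSO and 43 and 13 in imatinib, a ratio of 26.9 (exact 95% interval 8.76 to 135, counting error only).

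XK (ENSG00000047597.7, chrX:37685791-37732130, plus strand) encodes the membrane protein bound to Kell. It had 17 and 19 read pairs in DMSO and 111 and 55 in imatinib. The normalized levels were 4.28 ± 0.889 and 24.5 ± 0.0704 CPM (SD, 2 libraries each). XK rose by a log2 fold change of 2.53 (SE 0.36, edgeR adjusted p = 0.00392). All 202 read pairs of XK also fit ENSG00000250349, a protein-coding gene model of Gencode whose body spans XK on the same strand, so by the counting rule the genes are not separated, and XK has no value when only pairs that fit 1 gene are kept.

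Starts of XK were scattered. The cluster at chrX:37685785, 6 nt before the annotated start, held 44.6% of the read pairs, while 45.0% began at 85 different positions of the last exon. In the other 8 genes the share that began in the last exon ranged from 0.478% in RHCE to 21.0% in ERMAP. The main poly(A) site, chrX:37732122, held 59.4%, and a site in the intron at chrX:37694713, with an ATTAAA in front, had 0 and 1 read pairs in DMSO and 16 and 3 in imatinib. No TIF of XK had enough read pairs to be tested.

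ERMAP (ENSG00000164010.15, chr1:42817122-42844991, plus strand) encodes a protein of the immunoglobulin superfamily found on erythroid cells. It had 54 and 93 read pairs in DMSO and 808 and 171 in imatinib. Levels were 16.7 ± 1.62 and 127 ± 72.6 CPM (SD, 2 libraries each), with imatinib replicate 1 well above replicate 2. The rise was a log2 fold change of 2.93 (SE 0.43, edgeR adjusted p = 0.00448), and without imatinib replicate 1 it was 2.19.

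The start most used in ERMAP was not that of the canonical transcript. The cluster at chr1:42825581, in an intron of the canonical transcript and 21 bp downstream of another annotated start, held 61.0% of the read pairs, with 63.0% and 63.4% in DMSO and 59.5% and 66.1% in imatinib. The canonical start, chr1:42817122, lies 8459 nt upstream and held 5.68%, with 3 and 9 read pairs in DMSO and 47 and 5 in imatinib. The end of the gene was used in 56.8% of the read pairs, and a site 940 bp past it, chr1:42845931, in 22.4%.
ERMAP site 1, chr1:42844962-42844991, plus strand: taaAATAAAagtttggtatttgtgttttgg
ERMAP site 2, chr1:42845902-42845931, plus strand: tattttaaaaAATAAAacctgaaaaaaaag
Site 2 took 22.2% and 15.1% in DMSO and 23.8% and 19.9% in imatinib, and the groups overlapped. The neighbouring gene ZNF691 shares 12 of the 1126 read pairs of ERMAP. Of 3 TIFs tested, 2 were called. The largest, chr1:42825581 to chr1:42844991, had 6 and 13 read pairs in DMSO and 67 and 18 in imatinib (log2 fold change 2.59, SE 0.54, edgeR adjusted p = 0.0158), and was not called without DMSO replicate 1 (edgeR adjusted p = 0.0670). The TIF from chr1:42825654 to the same site had 0 and 0 in DMSO and 19 and 10 in imatinib. The ratio to DMSO had an exact 95% lower limit of 10.6 (counting error only).

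**Figure D4:**
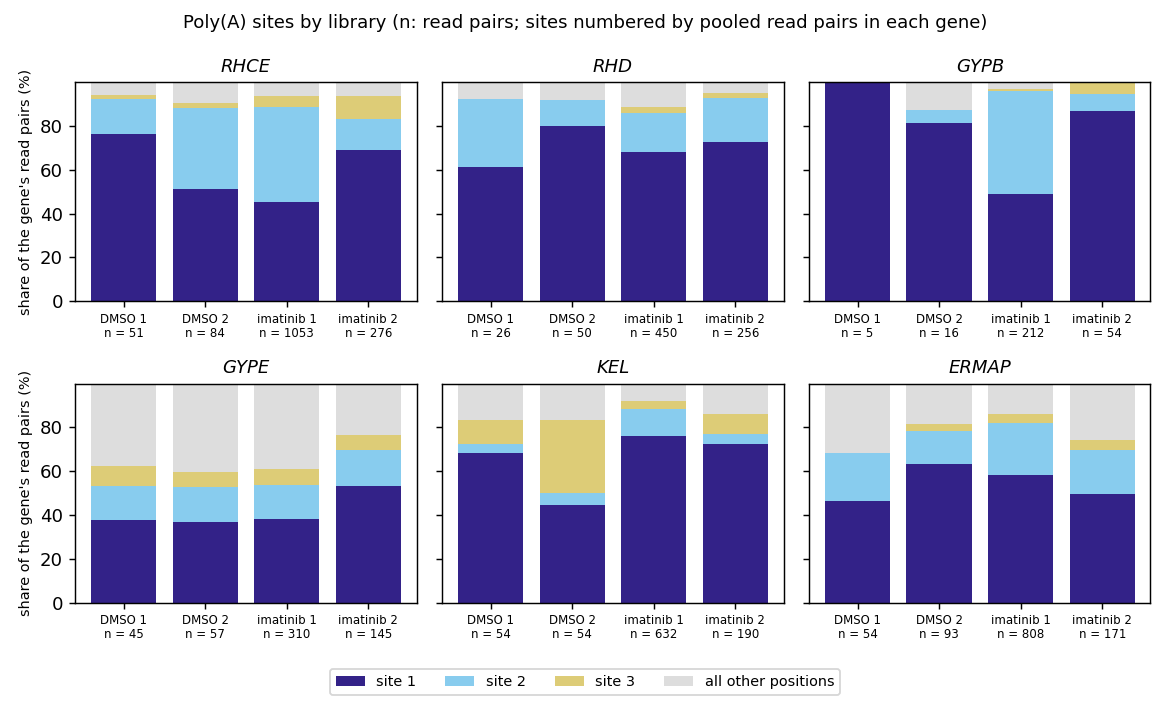
Share of the read pairs of RHCE, RHD, GYPB, GYPE, KEL and ERMAP at the 3 most used poly(A) sites of each gene and at all other positions, per library, with the number of read pairs under each bar. Site 2 of RHCE is large in DMSO 2 and imatinib 1, site 2 of GYPB in imatinib 1 alone, and the share at site 2 of GYPE is alike in the 4 libraries.

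Of the shares in the plot by poly(A) site, site 2 of RHCE differed within each treatment and site 2 of GYPB within imatinib. The library imatinib replicate 1 held the larger of the 2 normalized imatinib levels in RHCE, GYPB, GYPE, GYPC, KEL, XK and ERMAP, and imatinib replicate 2 in RHAG and RHD.

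Other genes of blood group systems were read from a list of 39, of which 32 had read pairs and 23 were tested. After imatinib 10 were called higher, 0 lower and 13 did not pass, with a median log2 fold change of 0.66. Of all genes tested, 8.69% were called higher and 6.15% lower. Without DMSO replicate 1 the list had 5 called higher and 2 lower, and without DMSO replicate 2 it had 6 and 0. Without imatinib replicate 1 it had 10 and 1, and without imatinib replicate 2 it had 13 and 2. Totals over all genes moved as well when a library was left out, as given in the section on processing. Among the largest rises were those of SLC4A1, AQP1 and ABCG2. These genes reached the filter for testing only with the imatinib libraries. For them the filter favoured the higher direction, and the count of 10 includes them. SLC4A1, the band 3 anion exchanger that carries the Diego antigens, had 2 and 4 read pairs in DMSO and 948 and 109 in imatinib (log2 fold change 7.49, SE 0.85, edgeR adjusted p = 0.00217). AQP1, the water channel of the Colton antigens, had 2 and 13 in DMSO and 126 and 106 in imatinib (log2 fold change 4.44, edgeR adjusted p = 0.00277). ABCG2, the transporter of the Junior antigen, had 1 in each DMSO library and 13 and 6 in imatinib, a ratio of 12.2 (exact 95% interval 2.93 to 108, counting error only).

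Not every blood group gene rose: CD44, of the Indian antigens, had 30 and 98 read pairs in DMSO and 17 and 19 in imatinib (log2 fold change -1.29, edgeR adjusted p = 0.129), and CD99 had a log2 fold change of 0.03 (edgeR adjusted p = 0.948).

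Of 11 genes whose proteins join the Rh, glycophorin C and Kell-XK complexes to one another or to the membrane skeleton, all were tested, 6 were called higher, 0 lower and 5 did not pass, with a median log2 fold change of 1.09. The shares over all genes tested were 8.69% higher and 6.15% lower. SLC4A1, described above, is on this list of 11 too and had the largest rise. SLC4A1, EPB42 and DMTN, all among the 6 called, reached the filter for testing only with the imatinib libraries. For them the filter favoured the higher direction. Without DMSO replicate 2 the list had 3 called higher. EPB42, protein 4.2, had 8 read pairs in each DMSO library and 938 and 201 in imatinib (log2 fold change 6.29, SE 0.54, edgeR adjusted p = 0.000895). DMTN, dematin, had 3 and 6 in DMSO and 30 and 15 in imatinib (log2 fold change 2.65, edgeR adjusted p = 0.0106). ADD2, the beta subunit of adducin, had 210 and 231 in DMSO and 1812 and 532 in imatinib (log2 fold change 2.61, edgeR adjusted p = 0.00323). CD47, which sits with the Rh complex, had 407 and 607 in DMSO and 326 and 152 in imatinib (log2 fold change -0.74, edgeR adjusted p = 0.0875), and VPS13A, the partner of XK, had 15 and 12 in DMSO and 34 and 9 in imatinib (log2 fold change 0.90, edgeR adjusted p = 0.262).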

How the data were processed

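K562 cells were profiled by TIF-Seq2 after imatinib or DMSO, with 2 libraries each, grouped by the sample labels. The authors trimmed reads of 76 bp (cutadapt 1.16), aligned them to hg38 (STAR 2.5.3a), retained pairs that mapped uniquely to the same chromosome, removed duplicates by an 8 bp molecular identifier, and deposited raw counts per combination of 5′ and 3′ end. The versions are those in the submitters' processing notes.

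Pairs were summed per Gencode v44 gene, and a pair that fits several genes counts for each. Start and poly(A) clusters join positions at most 10 bp apart, and TIFs were rebuilt here with a power-law tag filter after the study's methods, which gave 15953 start clusters and 33887 TIFs, and are not the study's own set. Genes and TIFs were tested with edgeR 4.0.16 (quasi-likelihood, robust, TMM, filterByExpr, library size the total of deposited pairs) and Benjamini-Hochberg adjustment, with DESeq2 1.42.0 as an alternative. The standard error is the size of the log2 fold change over the square root of F. On counts simulated for the comparison of 12135 genes, 15.4% of changes of 1 on the log2 scale, 81.4% of changes of 2 and 100% of changes of 3 were recovered. There were 13 false calls. For the 15477 TIFs the shares recovered were 8.54%, 70.0% and 81.0%, with 8 false calls. Each simulation gave all its features a common dispersion, so differences in spread between genes or TIFs were not modelled. Replicates differed beyond sampling noise (chi-square per degree of freedom 10.2 in DMSO and 16.8 in imatinib).

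All 9 genes were named, with the largest TIF of each, up to 3 TIFs past the threshold, up to 4 rises and 4 falls per list past the threshold, and neighbours that share pairs, except for items that are not reported here. CD44, CD99, CD47, VPS13A, the third site of KEL and the sites past RHCE, GYPB and GYPE were picked after their values were seen. Members and lists were chosen with earlier results of these data known. The long-read models and the 3′T-fill samples were not used here.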

Additional observations from a re-analysis of the deposited data

How the results depend on the processing

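Every log2 fold change of the 9 genes and of their named TIFs stayed above 0 in the alternatives that gave a value. With the replicate block in edgeR, 7 of the 9 genes were called (RHAG adjusted p = 0.0501, GYPC adjusted p = 0.164), and in DESeq2 8 (GYPC adjusted p = 0.232). Without DMSO replicate 1 the number was 8 and without DMSO replicate 2 it was 7, and other alternatives called 7 to 9. Both groups share replicate numbers in the labels, which do not say that a number marks a common culture, and libraries with the same number did not deviate together (correlation -0.254). The replicate block in edgeR called 413 of all genes lower in place of 746, and in DESeq2 338 higher and 330 lower, 5 other blood group genes higher and 3 complex partners higher. With the numbers crossed, an alternative chosen after seeing the data, the replicate block called 1933 genes higher and 1790 lower, 2 other blood group genes lower and 1 complex partner lower. DESeq2 with default settings called 692 genes higher and 1 other blood group gene lower. Without a filter on low counts, 1325 genes and 2 other blood group genes were called lower and 35 TIFs of the 9 genes higher. A log2 fold change beyond 1.5 left 396 genes lower. Leaving out each library in turn gave 497 to 2143 genes higher and 323 to 1812 lower, 5 to 13 other blood group genes higher and 0 to 2 lower, and 3 to 8 complex partners higher, and a library left alone in its group was assumed to vary like the other group. The lowest totals came without DMSO replicate 2 and the highest without imatinib replicate 2. The cause of these shifts was not tested. Of the shares at main sites, 12 of 108 alternative values moved by more than the SD over the libraries, among them that of GYPB site 1, which was 94.2% with A-rich pairs left out and 86.7% without imatinib replicate 1, and that of RHCE site 1, which was 66.4% without imatinib replicate 1 and 93.9% with positions joined at 50 bp. GYPB had the fewest read pairs in DMSO, 5 and 16, and its log2 fold change lay between 3.29 and 4.58 over the alternatives.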

Other observations

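Within 1 kb of the body of RHCE but on the opposite strand lay 34 read pairs, 4 and 16 in DMSO and 9 and 5 in imatinib, while the opposite strands of RHAG, RHD, GYPB, GYPC, KEL and XK had none in any library. GYPB had 12 read pairs that began in it and ended past it, 0 and 0 in DMSO and 11 and 1 in imatinib, of which 7 ended around chr4:143989584, 6.52 kb past the annotated end.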
